A study of Mus musculus with 12 samples.

Results

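Chromatin remodellers are enzymes that spend ATP to slide, evict or exchange nucleosomes. The genes described here encode these ATPases, the subunits that travel with them and the methyl-CpG binding (MBD) proteins. Members were the protein-coding genes of the count table whose symbol begins with Smarc, Ino80, Arid1, Arid2, Mbd, Mta plus a number or Chd plus a number, together with Hells, Atrx, Ep400, Srcap, Bptf and Dpf2. The rule used names only and found 48 of 51467 genes. Of these, 46 passed the filter on low counts (at least 3 CPM, which are counts scaled to library size, in at least 3 libraries), as did 14731 genes in all. The other 2 were Mbd3l1, with 0 reads in all 12 libraries, and Mbd3l2, with 1 read in the ESC 4sU replicate 2 library and 0 elsewhere.

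Mouse embryonic stem cells (ESCs) held in the naive state by LIF and 2i (the inhibitors PD0325901 and CHIR99021) with serum were compared with epiblast-like cells (EpiLCs), the state these cells enter about 56 h after LIF and 2i are withdrawn. Newly made RNA was tagged in both cell types, and in all cells sequenced, by a 30 min pulse of 500 µM 4-thiouridine (4sU). The RNA was then split: thiol-labelled molecules were captured with streptavidin for the 4sU libraries, which measure nascent RNA, and unselected RNA depleted of ribosomal RNA gave the total libraries. There were 4 groups (ESC total, EpiLC total, ESC 4sU and EpiLC 4sU) of 3 libraries each. The labels name no cell line. The paper's methods list a V6.5 ESC line carrying miR-290 mCherry and miR-302 GFP reporters for this differentiation. Its results section calls the replicates biological. The paper does not say how the cultures were kept apart, so p-values measure the spread between these libraries.

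Remodellers fall into families by their ATPase. The BAF and PBAF complexes (Smarca4 or Smarca2 with Smarcb1, Smarcc, Smarcd, Arid and Dpf subunits) open chromatin at enhancers and promoters, the ISWI enzymes (Smarca5, Smarca1) space nucleosomes, NuRD joins a CHD ATPase (Chd3, Chd4 or Chd5) to histone deacetylases through Mta and Mbd2 or Mbd3 subunits, and the INO80, SRCAP and EP400 complexes handle the histone variant H2A.Z. In pluripotent cells BAF is assembled around Smarca4, Smarcc1, Smarcd1 and Arid1a, and NuRD restrains pluripotency genes so that cells can leave the naive state.

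Total libraries held 9300845 to 21975684 counted reads and 4sU libraries 3097693 to 5385644. For a gene with a like share of reads in both assays, counting error was therefore larger in nascent RNA. Some members, such as Mbd6 and Srcap, had more reads in the 4sU libraries than in the total libraries. The labelled cell types were checked against marker genes. All 8 naive markers were called lower in EpiLC total RNA and 6 of 7 formative and primed markers were called higher, the exception being Lef1. Of 4 general pluripotency markers, Sox2 was called lower (log2 -3.55, an 11.7-fold fall) and Lin28a higher (log2 1.80). Pou5f1 and Sall4 were not called, at log2 changes of -0.77 and 0.05. Among markers of other cells, Dab2, Gata4, T, Mixl1, Pax6, Usp17la, Col1a2 and Dcn were called higher and Sox17 lower. The summed level of each of these other lists stayed at or under 35 CPM in every total library, and the part of such cells in the results below was not tested. ESC replicate 3 stood apart: its total library differed from ESC total replicates 1 and 2 by a chi-square per degree of freedom of 29.9 and 30.9, against 2.72 between replicates 1 and 2. Results that rest on it are given with and without it. In bulk RNA, fewer cells making a transcript and less transcript per cell cannot be told apart.

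The promoters of the members were rich in CG dinucleotides. RefSeq promoter entries (GRCm38.p6) were matched by symbol for 36 members, and the 250 bases before each start held a median of 19.5 CG dinucleotides (range 0 to 40), beside a median of 10 over 21262 entries of protein-coding genes and 6 over all 32851 entries. The GC box letters GGGCGG, searched on both strands, were in 30 of the 36 (83.3%), beside 42.6% of protein-coding entries and 32.7% of all entries. These backgrounds were not limited to genes past the filter on low counts, which 46 of the 48 members passed. Whether the members differ from other genes past that filter was not tested. Other motifs were no more frequent among the members than among protein-coding entries: CCAAT was in 27.8% against 35.4%, TATAAA in 5.56% against 11.6%, the E-box CACGTG in 5.56% against 6.63%, and the homeodomain letters TAATCC, which OTX factors bind, in 5.56% against 5.81%. These are matches of letters over windows that overlap CG-rich sequence, not binding sites. The 150 bases before the start are printed for Mta1, Arid1a and Chd6, which rose more than 2-fold in EpiLCs, and for Smarca4, which did not, with each CG dinucleotide in capitals and each sequence running 5′ to 3′ on the strand of its gene. For Chd6 the RefSeq start lies 64 bases before the start used in the count table. Among entries used above but not printed, the starts lay 483 bases apart for Chd9, 5340 for Smarcd2 and 22409 for Smarcd3.
Mta1, chr12:113098128-113098277, plus strand: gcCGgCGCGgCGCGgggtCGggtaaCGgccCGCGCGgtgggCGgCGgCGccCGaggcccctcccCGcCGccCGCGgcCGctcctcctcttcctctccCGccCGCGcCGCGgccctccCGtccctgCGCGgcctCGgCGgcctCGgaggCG
Smarca4, chr9:21616019-21616168, plus strand: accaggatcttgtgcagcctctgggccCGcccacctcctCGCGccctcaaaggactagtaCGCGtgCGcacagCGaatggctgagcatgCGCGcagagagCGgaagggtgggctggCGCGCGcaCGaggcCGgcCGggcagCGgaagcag
Arid1a, chr4:133756770-133756919, minus strand: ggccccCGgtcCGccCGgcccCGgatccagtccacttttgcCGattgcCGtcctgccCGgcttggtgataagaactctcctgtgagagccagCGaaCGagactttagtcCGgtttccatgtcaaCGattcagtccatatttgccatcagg
Chd6, chr2:161109087-161109236, minus strand: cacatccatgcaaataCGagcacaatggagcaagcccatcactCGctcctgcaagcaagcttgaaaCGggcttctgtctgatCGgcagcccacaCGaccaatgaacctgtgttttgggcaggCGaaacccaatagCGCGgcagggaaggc
These stretches held 31 CG dinucleotides in Mta1, 17 in Smarca4, 11 in Arid1a and 8 in Chd6. Chd9, which also rose more than 2-fold but is not printed, held 13. Of these genes that rose, Mta1 thus lay above Smarca4, and Arid1a, Chd6 and Chd9 lay below it.

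To ask which remodellers changed as naive cells became epiblast-like, EpiLC total RNA was compared with ESC total RNA by limma-voom. A gene was called at an adjusted p (Benjamini-Hochberg over all genes tested) under 0.05 and a change over 2-fold. Of the 46 tested members, 7 (15.2%) were called higher in EpiLCs, against a background of 16.3% of all genes tested, and 1 (2.17%) was called lower, against 11.2%. Those called higher were Chd9, Arid2, Chd7, Chd3, Mta1, Arid1a and Chd6, and the one called lower was Smarcd3. On the adjusted p alone, 15 members (32.6%) were higher, against 31.4%, and 12 (26.1%) were lower, against 32.1%. The median log2 change was 0.01 over the members, with a range from -2.28 to 1.76, and 0.02 over all genes tested. The share of members called higher was thus near the background, and most of the changes were small. The same 8 members were called without both ESC replicate 3 libraries, a setting that called 2554 of 14309 genes higher and 1479 lower.

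**Figure D1:**
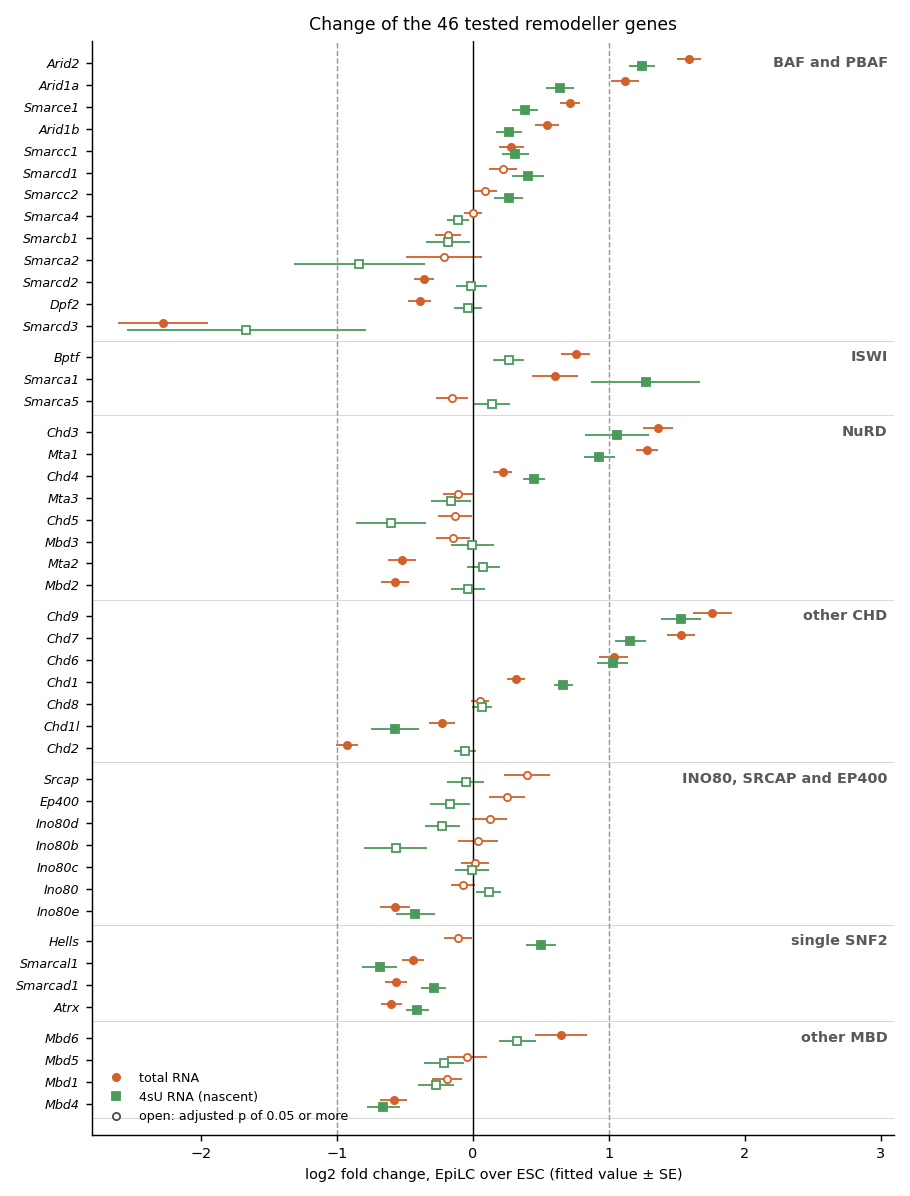
Log2 fold change from ESC to EpiLC (horizontal axis) of the 46 tested members, in total RNA (circles) and 4sU RNA (squares), grouped by family; bars are standard errors of the limma-voom fit, filled symbols have an adjusted p under 0.05 and dashed lines mark 2-fold. Chd9 at 1.76 and Smarcd3 at -2.28 are the ends of the total RNA range, and for Chd2 and Mta2 the circle lies left of the square.

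Of the 7 members called higher, 3 were CHD ATPases of the Chd6 to Chd9 subfamily, Chd9 with the largest of the 7 rises and Chd6 with the smallest. Chd9 (chromosome 8, 90828352 to 91054516, mm10), a large chromodomain helicase, stood at 108, 107 and 179 normalised CPM in the 3 ESC total libraries and at 416, 414 and 450 in the 3 EpiLC total libraries. It rose 3.39-fold (log2 1.76 ± 0.14 SE, adjusted p = 6.26e-08), or by log2 1.98 without both ESC replicate 3 libraries, the higher of its ESC values being that replicate. The groups did not overlap. Chd7 (chromosome 4, 8690921 to 8867659), an enhancer-bound helicase mutated in CHARGE syndrome, went from 75.3, 77.6 and 104 CPM to 249, 238 and 244 (log2 1.53 ± 0.10, adjusted p = 1.11e-08). Chd6 (chromosome 2, 160946978 to 161109022) went from 141, 131 and 152 CPM to 293, 285 and 286 (log2 1.03 ± 0.11, adjusted p = 8.31e-07). Every EpiLC library lay above every ESC library for both genes. Chd8, the other gene of this subfamily and a regulator of beta-catenin, gave a log2 change of 0.05 ± 0.07 (95% interval -0.09 to 0.20).

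Nascent RNA of the same helicases was higher as well. Chd9 4sU RNA went from 265, 255 and 281 CPM to 753, 749 and 812 (log2 1.53 ± 0.15, adjusted p = 1.02e-06). For Chd7 the values were 114, 102 and 99.8 CPM in ESCs and 250, 232 and 224 in EpiLCs (log2 1.16 ± 0.11, adjusted p = 1.50e-06), and for Chd6 they were 188, 152 and 124 against 312, 300 and 326 (log2 1.03 ± 0.12, adjusted p = 5.04e-06). Chd6 nascent RNA fell below the 2-fold line without both ESC replicate 3 libraries (log2 0.86). The stability change, which is the change in total RNA minus the change in 4sU RNA, was 0.23 ± 0.20 for Chd9, 0.38 ± 0.15 for Chd7 and 0.01 ± 0.16 for Chd6 on the log2 scale, none with an adjusted p under 0.05.

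Among the 13 BAF and PBAF genes, the ARID subunits rose, the core did not pass 2-fold and Smarcd3 fell. Arid2 (chromosome 15, 96287518 to 96404992), the DNA-binding subunit that defines PBAF, went from 89.8, 85.4 and 98.8 CPM in ESC total RNA to 276, 259 and 285 in EpiLC total RNA (log2 1.59 ± 0.09, adjusted p = 1.75e-09). Arid1a (chromosome 4, 133679008 to 133756769), its counterpart in canonical BAF, went from 69.2, 72.4 and 92.8 CPM to 167, 163 and 171 (log2 1.12 ± 0.10, adjusted p = 2.24e-07). The groups did not overlap for either. Arid1b, the paralogue that replaces Arid1a in some BAF complexes, rose less, from 51.4, 52.9 and 54.7 CPM to 74.2, 79.1 and 78.1 (log2 0.55 ± 0.09, adjusted p = 7.18e-05). In 4sU RNA the log2 changes were 1.25 ± 0.10 for Arid2, 0.64 ± 0.10 for Arid1a and 0.26 ± 0.10 for Arid1b, with adjusted p of 1.53e-07, 1.04e-04 and 0.0312.

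Smarcd3 (BAF60C, chromosome 5, 24592622 to 24624411), the BAF subunit best known from heart and muscle, had 22.5, 23.4 and 11.6 CPM in ESC total RNA and 3.79, 4.07 and 3.88 in EpiLC total RNA. It fell 4.85-fold (log2 -2.28 ± 0.33, adjusted p = 2.89e-05). The log2 change was -2.54 without both ESC replicate 3 libraries, the total one being the lowest of its group. Its 4sU values were low, at 2.05, 4.29 and 2.17 CPM in ESCs and 0.236, 1.48 and 1.19 in EpiLCs (log2 -1.67 ± 0.88, adjusted p = 0.126). The groups did not overlap in either assay, but the nascent change missed the threshold in limma-voom. It passed in edgeR's quasi-likelihood test (log2 -1.58, adjusted p = 0.0316) and in DESeq2 (log2 -1.52, adjusted p = 0.0175).

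The catalytic and scaffold subunits of BAF moved little. Smarca4 (BRG1), the ATPase of the pluripotent cell complex, had a log2 change of 0.00 in total RNA (-0.00 ± 0.07, 95% interval -0.15 to 0.14) at 483 to 526 CPM in ESCs and 492 to 517 in EpiLCs. Its paralogue Smarca2 (BRM) was near the filter, at 6.14, 5.94 and 13.8 CPM in ESCs and 6.14, 7.01 and 5.77 in EpiLCs (log2 -0.22 ± 0.28, adjusted p = 0.518), and ESC replicate 3 was the highest library. Smarcc1 (BAF155) rose by log2 0.28 ± 0.09 (adjusted p = 0.0131) and Smarce1 (BAF57) by 0.71 ± 0.07 (adjusted p = 1.08e-06). Smarcd2 fell by 0.36 ± 0.07 and the PHD finger subunit Dpf2 by 0.39 ± 0.09 on the log2 scale, with adjusted p of 4.32e-04 and 0.00102. Smarcb1, Smarcc2 and Smarcd1 gave -0.18 ± 0.10, 0.09 ± 0.09 and 0.22 ± 0.10, with adjusted p from 0.0717 to 0.404. In all, 5 of the 13 rose and 3 fell on the adjusted p, with a family median of 0.09, beside the 31.4% and 32.1% of all genes tested given above.

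In NuRD, the rises were in Chd3 and Mta1, while the more abundant Chd4 and Mta2 changed by less than 2-fold. Chd3 (chromosome 11, 69343273 to 69369406), an alternative NuRD ATPase, went from 41.7, 39.5 and 46.8 CPM to 107, 109 and 110 (log2 1.36 ± 0.11, adjusted p = 6.60e-08). Mta1 (chromosome 12, 113098278 to 113137206), a scaffold that binds the deacetylases, went from 48.1, 50.4 and 47.1 CPM to 124, 123 and 108 (log2 1.28 ± 0.08, adjusted p = 6.72e-09). Both groups were fully apart for each gene. Mta2, its paralogue, went the other way, from 347, 340 and 348 CPM to 234, 243 and 244 (log2 -0.52 ± 0.10, adjusted p = 4.42e-04). Chd4 (Mi-2 beta), the main NuRD ATPase of these cells by level, stood at 1028, 943 and 1059 CPM in ESCs and 1153, 1166 and 1199 in EpiLCs (log2 0.22 ± 0.07, adjusted p = 0.0116).

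The methyl-CpG binding subunits of NuRD did not rise. Mbd2, which recruits NuRD to methylated DNA, fell from 24.9, 23.6 and 26.4 CPM to 18.3, 15.3 and 16.5 (log2 -0.58 ± 0.10, adjusted p = 2.06e-04). Mbd3, which lacks strong binding to methylated CpG and is needed for NuRD to act in ESCs, had 78.7, 74.5 and 60.0 CPM in ESCs and 63.4, 64.2 and 64.7 in EpiLCs (log2 -0.15 ± 0.12, adjusted p = 0.308), and its groups overlapped. Mta3 (64.8, 67.8 and 85.3 against 57.8, 72.4 and 69.9 CPM) overlapped as well, with a log2 change of -0.11 ± 0.11. Chd5, the neuronal NuRD ATPase, gave -0.14 ± 0.13. In 4sU RNA, Chd3 rose from 6.95, 9.13 and 16 CPM to 18.1, 23.3 and 19.3 (log2 1.06 ± 0.23, adjusted p = 0.00160), Mta1 from 33.3, 33.6 and 37.4 to 72.8, 63.6 and 61.4 (log2 0.93 ± 0.11, adjusted p = 8.71e-06) and Chd4 by log2 0.45 ± 0.08 (adjusted p = 3.41e-04).

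The ISWI genes differed among themselves. Smarca5 (SNF2H), the ISWI ATPase that dominates in ESCs, had 356, 339 and 500 CPM in ESC total RNA and 337, 361 and 352 in EpiLC total RNA (log2 -0.16 ± 0.12, adjusted p = 0.258). Smarca1 (SNF2L, chromosome X, 47809368 to 47892552), its paralogue, had 34.7, 34.2 and 18.9 CPM in ESCs and 49.4, 41.3 and 42.6 in EpiLCs (log2 0.60 ± 0.17, adjusted p = 0.00629). ESC replicate 3 was the outlying library for both, high for Smarca5 and low for Smarca1, and the Smarca1 rise was 0.35 without its libraries. In 4sU RNA Smarca1 went from 6.13, 6.80 and 5.15 CPM to 17, 14.2 and 13.4 (log2 1.27 ± 0.40, adjusted p = 0.0152), the only ISWI gene called. Bptf, the large subunit of NURF that reads methylated histone H3, rose from 239, 230 and 314 CPM to 420, 428 and 453 (log2 0.76 ± 0.11, adjusted p = 1.86e-05).

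**Figure D2:**
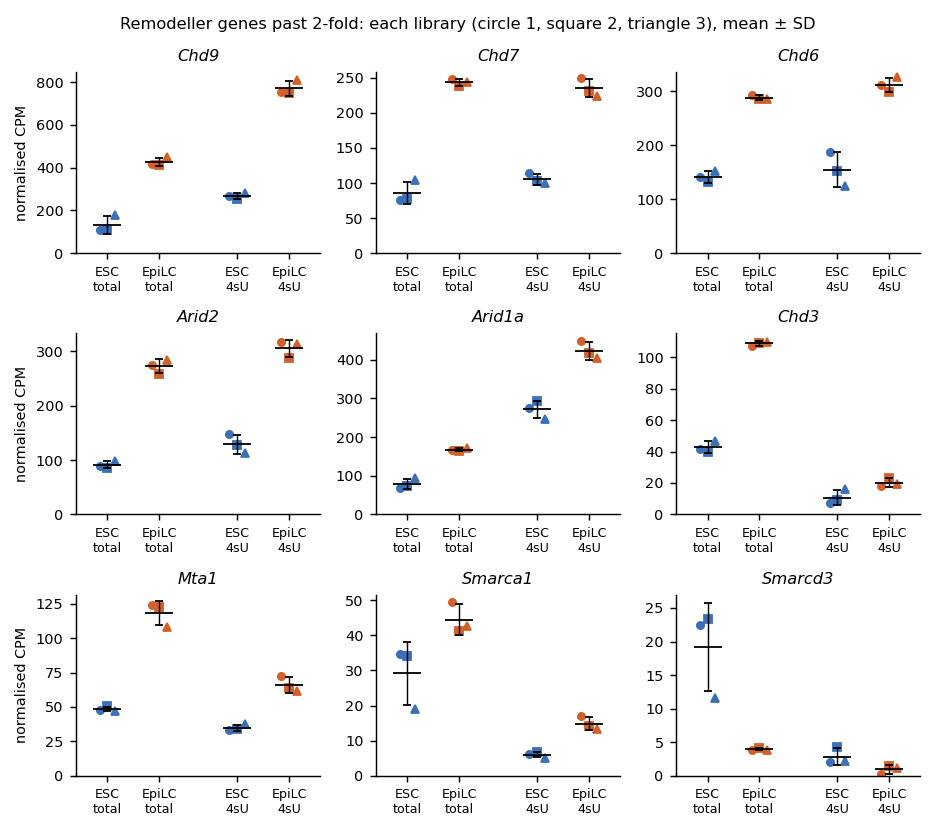
Normalised CPM (vertical axis, starting at 0, a separate scale in each panel) of the 9 members called in total or 4sU RNA, in each of the 12 libraries; symbols give the replicate number, and the black bars give the mean and SD of 3 libraries. ESC total replicate 3 (triangle) is the highest of its group for Chd9, Chd7 and Arid1a and the lowest for Smarca1 and Smarcd3.

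The falls that stayed under 2-fold were led by Chd2, a CHD ATPase linked to H3.3 deposition. Chd2 (chromosome 7, 73426638 to 73541746) went from 231, 228 and 215 CPM to 120, 118 and 116 in total RNA (log2 -0.93 ± 0.08, adjusted p = 1.50e-07). Atrx, the ATPase that loads H3.3 at telomeres and repeats, fell by log2 0.60 ± 0.08 (adjusted p = 9.82e-06) from 853 to 928 CPM in ESCs to 578 to 602 in EpiLCs. Smarcad1, which keeps heterochromatin during replication, fell by 0.56 ± 0.08, and Smarcal1, which re-anneals stalled forks, by 0.44 ± 0.08 on the same scale, with adjusted p of 2.95e-05 and 2.41e-04. Chd1, which is needed for the open chromatin of ESCs, rose by 0.32 ± 0.07 (adjusted p = 6.75e-04). The Chd1 entry spans 1690 kb (chromosome 17, 15704967 to 17394898), the longest span among the members. Whether its counts in either assay take in other transcripts was not tested. Chd1l had an adjusted p of 0.0499 at -0.23 ± 0.09 and lost it in edgeR (adjusted p = 0.0978).

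In the INO80, SRCAP and EP400 group, 1 of 7 genes passed an adjusted p of 0.05 in total RNA. It was Ino80e, which fell (log2 -0.57 ± 0.11, adjusted p = 3.05e-04). Over all genes tested, 31.4% were higher and 32.1% lower on the adjusted p. The ATPase genes Ino80, Ep400 and Srcap gave -0.07 ± 0.09, 0.25 ± 0.13 and 0.40 ± 0.17, with adjusted p of 0.492, 0.120 and 0.0515. Ino80b, Ino80c and Ino80d lay between 0.02 and 0.12. Of the MBD genes outside NuRD, Mbd4, a thymine glycosylase, fell by log2 0.58 ± 0.10 (adjusted p = 1.56e-04). Mbd6, a subunit of a histone H2A deubiquitinase complex, rose from 4.69, 4.68 and 7.87 CPM to 9.26, 8.15 and 7.65 (log2 0.65 ± 0.19, adjusted p = 0.00847), with overlap between ESC replicate 3 and the EpiLC libraries. Mbd1 and Mbd5 gave -0.19 ± 0.11 and -0.04 ± 0.15.

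Nascent RNA, which asks how much of a change lay in synthesis, gave 6 members called higher in EpiLCs (13%), beside 11.9% of all genes tested, and 0 called lower, beside 13.5%. On the adjusted p alone, 16 members (34.8%) were higher, beside 23.7%, and 6 (13%) were lower, beside 28.8%. The 6 called were Chd9, Smarca1, Arid2, Chd7, Chd3 and Chd6. The count of 0 came from limma-voom, while edgeR and DESeq2 each called 1, Smarcd3. Among the rises, Chd3 fell below 2-fold in edgeR (log2 0.97) and Chd6 with quality weights (log2 0.996). The 6 lower on the adjusted p were Atrx, Chd1l, Ino80e, Mbd4, Smarcad1 and Smarcal1, which were lower in total RNA too. Without the first ESC 4sU library 4 members were called higher, beside 1669 of 14455 genes tested. Chd3 (log2 0.79) and Smarca1 (adjusted p = 0.0571) had then dropped out. The median nascent change was -0.01 over the members and -0.09 over all genes tested.

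Exonic length moved with the total RNA change and is given beside it. Over 12312 protein-coding genes tested, the median log2 change rose from -0.21 in genes with up to 2000 exonic bases to 0.35 in genes above 8000 (Spearman's rho 0.21 across genes, which are not independent replicates). Members were long, with a median of 6005 exonic bases against 3349, and 16 of them exceeded 8000. Their median log2 change was 0.36 in that range and -0.23 in the 13 members between 2000 and 4000 bases. With the length trend removed within each library, a setting chosen after the data were seen, Chd9 (1.24), Arid2 (1.19), Chd7 (1.07), Chd3 (1.06), Mta1 (1.35) and Smarcd3 (-2.13) kept their total RNA calls, whereas Arid1a (0.73) and Chd6 (0.57) fell below 2-fold. The long genes Atrx (-1.15) and Chd2 (-1.34) were then called lower, while Arid1b (0.04), Chd1 (-0.19) and Chd4 (-0.04) no longer had an adjusted p under 0.05. In 4sU RNA, 2 members remained called higher under this setting, Chd9 (1.11) and Smarca1 (1.05), and Smarca2 (-1.12, adjusted p = 0.0487) was called lower. Of all 14731 genes tested, this setting called 2371 higher and 1664 lower in total RNA, and 1731 higher and 1985 lower in 4sU RNA. The part of the length trend in these results was not tested.

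**Figure D3:**
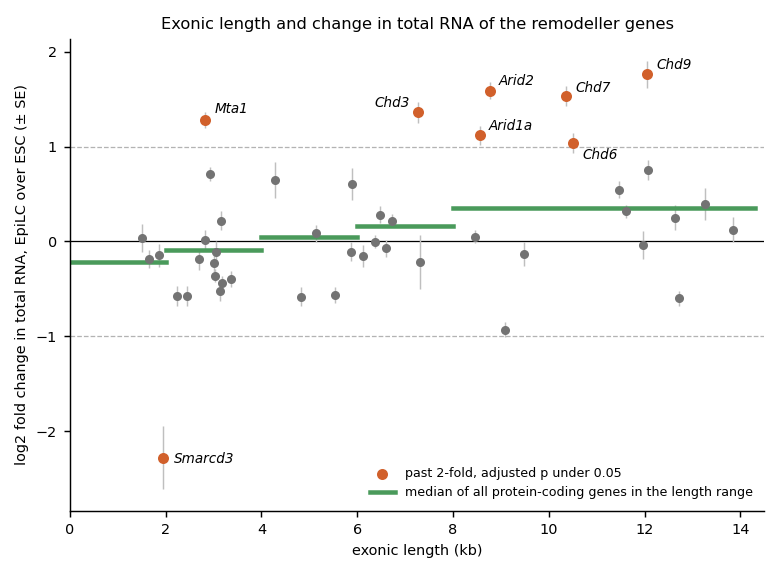
Log2 fold change in total RNA from ESC to EpiLC with its standard error (vertical axis) against exonic length in kb (horizontal axis) for the 46 tested members; orange points were called and green lines are medians of all protein-coding genes tested in each length range. The green medians climb from -0.21 to 0.35, and of the called members only Mta1 and Smarcd3 are shorter than 4 kb.

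Stability was asked of each gene by the interaction of cell type and assay. No member was called: 0 were more than 2-fold higher, beside 1.24% of all genes tested, and 0 lower, beside 0.305%. On the adjusted p alone, 0 were higher, beside 2.72%, and 3 (6.52%) were lower, beside 1.88%. These 3 were Chd2, Hells and Mta2. The all-gene counts behind these shares depend on the scaling, since 182 genes were called higher and 45 lower with TMM, and 132 and 66 with median-of-ratios size factors. The protocol splits each labelled RNA sample between the assays, and with same-numbered 4sU and total libraries as a replicate block the counts were 438 and 90. In that fit 2 members were higher on the adjusted p, beside 7.31% of all genes tested, and 5 were lower, beside 4.44%, with 0 past 2-fold. Those 5 were Chd2, Hells, Mta2, Chd1 and Mbd2, and the 2 higher were Arid1a and Bptf. The members' median change was 0.04, beside 0.11 over all genes tested and 0.06 over the protein-coding genes tested.

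Chd2 had the largest of these changes. Its total RNA fell while its 4sU RNA, at 456, 407 and 364 CPM in ESCs and 381, 386 and 407 in EpiLCs, gave a log2 change of -0.06 ± 0.08 (adjusted p = 0.558). The groups overlapped in 4sU RNA and were fully apart in total RNA. Log2 of total over 4sU, per same-numbered libraries, was -0.98, -0.84 and -0.76 in ESCs and -1.66, -1.71 and -1.81 in EpiLCs. The stability change was -0.87 ± 0.11 (adjusted p = 0.00159), and its adjusted p stayed at or under 0.00921 under every alternative. Exons of Chd2 share 6.98% of their bases on the same strand with the transcript 1810026B05Rik, where reads are not assigned.

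Mta2 followed the same course with a smaller change. Its 4sU values were 108, 127 and 153 CPM in ESCs and 154, 138 and 113 in EpiLCs, which overlapped (log2 0.08 ± 0.12, adjusted p = 0.622), while total RNA was lower in every EpiLC library. The stability change was -0.60 ± 0.16 (adjusted p = 0.0482). It lay next to the threshold and missed it in edgeR (adjusted p = 0.0583), with library totals (0.0561), with the length trend removed (0.0531) and when any one of 9 of the 12 libraries was left out, with adjusted p up to 0.121. The 3 libraries whose loss kept it were ESC total replicate 3, ESC 4sU replicate 3 and EpiLC 4sU replicate 3. Total over 4sU was 1.68, 1.42 and 1.19 in ESCs and 0.60, 0.82 and 1.11 in EpiLCs on the log2 scale.

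For Hells (LSH), an ATPase needed for DNA methylation of repeats, the difference came about the other way round. Total RNA was level, at 756, 770 and 674 CPM in ESCs and 652, 702 and 684 in EpiLCs (log2 -0.11 ± 0.10, adjusted p = 0.354), and 4sU RNA was higher in EpiLCs, from 487, 428 and 333 CPM to 569, 600 and 579 (log2 0.50 ± 0.11, adjusted p = 0.00168). The stability change was -0.61 ± 0.15 (adjusted p = 0.0354). Without both ESC replicate 3 libraries the 4sU change was 0.33 (adjusted p = 1.83e-04) and the stability change -0.50 (adjusted p = 3.15e-04). The adjusted p of the stability change rose to between 0.0522 and 0.0967 when any one of 8 other libraries was left out.

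The other 4 members that passed with the replicate block came near the threshold without it. Chd1 had a stability change of -0.35 ± 0.10 (adjusted p = 0.0551), with a larger nascent than total rise. Arid1a gave 0.48 ± 0.14 (adjusted p = 0.0677), Mbd2 -0.54 ± 0.16 (adjusted p = 0.0685) and Bptf 0.49 ± 0.15 (adjusted p = 0.0809). With the block their adjusted p were 0.0334 for Chd1, 0.0442 for Arid1a, 0.0428 for Mbd2 and 0.0438 for Bptf, at changes of -0.35, 0.48, -0.53 and 0.49. For Smarcd3, with few 4sU reads, the 95% interval of -2.62 to 1.40 does not say whether its stability changed.

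Within a cell type, relative stability (log2 of total over 4sU) spanned a wide range among the members. It ran from -3.13 for Mbd6 to 2.75 for Smarcd3 in ESCs and from -2.81 for Mbd6 to 2.42 for Chd3 in EpiLCs. The median was 0.02 in ESCs and 0.03 in EpiLCs, beside 0.03 and 0.15 over all genes tested. All members are protein-coding, and over the 12312 protein-coding genes tested the medians were higher, at 0.30 in ESCs and 0.37 in EpiLCs. The zero point is set by the scaling of the assays to each other, and the order of genes is what the measure carries. Members above the 90th percentile of all genes tested in ESCs were Smarcd3, Smarca1, Smarcb1 (2.22), Chd4 (2.18), Chd3 (2.12), Chd1l (1.76), Smarcd2 (1.75) and Smarca4 (1.73). The Smarcd3 value rested on 10, 24 and 8 reads in the ESC 4sU libraries. Its ratios per same-numbered libraries were 3.39, 2.42 and 2.34, so its place above the next members is uncertain. Other BAF and NuRD genes were spread over the range, such as Smarcc1 (0.04), Mbd3 (0.48) and Mbd2 (-0.36). Smarca1 (2.23) was at the 96.4th percentile in ESCs and the 88.6th in EpiLCs.

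At the unstable end, Mbd6 had 41.3, 48.5 and 51.0 CPM in ESC 4sU RNA beside the 4.69, 4.68 and 7.87 CPM in total RNA given above. Srcap, the ATPase that loads H2A.Z, had 90.4, 68.9 and 68.9 CPM in 4sU RNA beside 10.1, 10.4 and 15.7 in total RNA in ESCs, and 74.0, 74.8 and 69.4 beside 13.7, 15.8 and 15.4 in EpiLCs. Both genes were at or under the 12th percentile in both cell types. Srcap values are uncertain, because 73.5% of its exonic bases lie on the same strand within exons of the gene model Gm42715 and reads there are not assigned to either, leaving 3519 bases. Arid1a (-1.82), Mbd5 (-1.61) and Ino80d (-1.51) followed in ESCs. Relative stability in ESCs fell with exonic length, with a Spearman's rho of -0.41 over 46 members and -0.26 over 12312 protein-coding genes, given as a description since the genes share libraries.

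**Figure D4:**
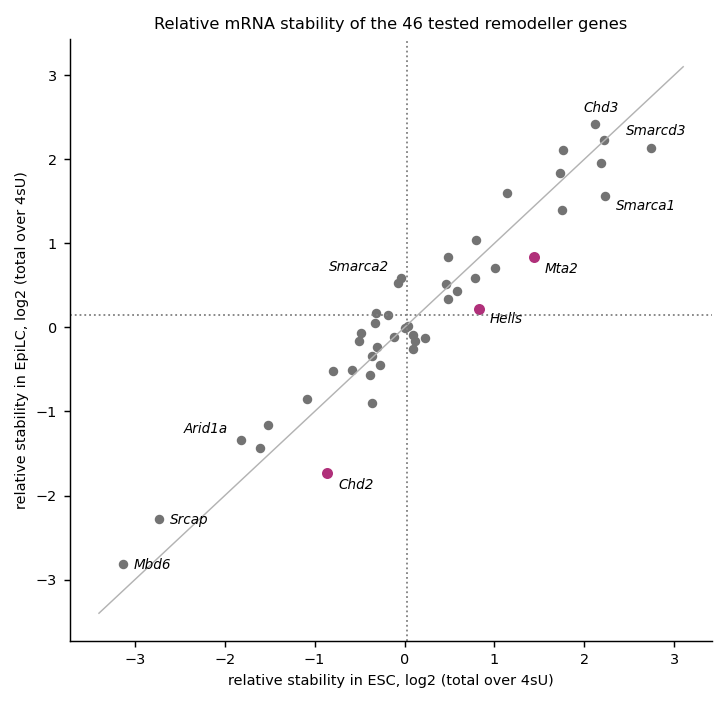
Relative stability of the 46 tested members, as fitted log2 of total over 4sU, in ESCs (horizontal axis) and EpiLCs (vertical axis), with the line of equality and dotted lines at the medians of all genes tested. Most points lie near the line; Chd2, Mta2 and Hells (magenta), the members with an adjusted p under 0.05 for the interaction, lie below it.

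Levels per kb of exon in total RNA, which allow genes to be compared, placed Chd4 first in both cell types (150 ± 9.0 CPM per kb in ESCs and 175 ± 3.5 in EpiLCs, SD, n = 3). Hells came next (125 ± 8.8 and 116 ± 4.3). Mta2 took place 3 in ESCs (110 ± 1.3) and place 5 in EpiLCs (76.6 ± 1.8), and Smarcb1 and Smarca4 were at 90.8 ± 9.3 and 78.6 ± 3.5 in ESCs. In EpiLCs Smarca4 (78.5 ± 2.2) did not differ beyond its spread from its neighbours Smarcb1 (80.1 ± 2.3) and Mta2. At the other end were Mbd5, Mbd6 and Smarca2, each under 2 CPM per kb in both cell types. Srcap was under 2 as well when divided by its full 13257 exonic bases. Reads were assigned over only 3519 of these, so that value is too low and its place among the members is not known. Chd9 moved from place 29 to 13, Arid2 from 30 to 16, Chd7 from 36 to 20 and Mta1 from 22 to 11, while Chd2 moved from 16 to 31.

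Paralogues that fill the same place in a complex were compared as the log2 ratio of counts per kb within each library, which does not depend on library scaling. Of 12 pairs, 9 had ESC and EpiLC total ratios that did not overlap, and in 4sU RNA 7 of 12 did not. Some genes recur among the pairs, and 28 of the 46 tested members taken singly had no overlap in total RNA. A share over other pairs of genes was not taken, so these counts are a description. With 3 libraries against 3 the exact two-sided permutation test cannot go below 0.1, and its value for these 9 pairs was 0.1 (0.133 after adjustment over 12 pairs), so none passed 0.05. The largest shift was in Smarcd1 over Smarcd3, which went from 1.66 ± 0.38 in ESCs to 4.11 ± 0.09 in EpiLCs (SD, n = 3), because Smarcd3 fell while Smarcd1 (105, 97.4 and 80.0 CPM against 111, 106 and 112) hardly moved.

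The Mta genes gave the next shift. Mta1 over Mta2 was -2.70, -2.61 and -2.74 in the ESC libraries and -0.77, -0.84 and -1.03 in the EpiLC libraries, so Mta1 went from 0.156 to 0.544 of the Mta2 level. In 4sU RNA the same ratio moved less, from -1.73 ± 0.17 to -0.88 ± 0.13. Chd4 over Chd3 narrowed from 4.68 ± 0.06 to 3.54 ± 0.01, that is from 25.6-fold to 11.6-fold. Its 4sU ratios, 5.11, 4.83 and 3.77 against 4.23, 3.79 and 4.05, overlapped.

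Smaller shifts were seen in the remaining pairs without overlap. Arid1a over Arid1b went from 0.97 ± 0.19 to 1.54 ± 0.06 and Arid1a over Arid2 from -0.20 ± 0.14 to -0.67 ± 0.04. Smarcd1 over Smarcd2 changed sign, from -0.19 ± 0.18 to 0.40 ± 0.07, with Smarcd2 at 104, 103 and 101 CPM in ESCs and 76.9, 80.5 and 82.3 in EpiLCs. Mbd3 over Mbd2 went from 1.89 ± 0.27 to 2.33 ± 0.14 and Mta2 over Mta3 from 2.22 ± 0.20 to 1.82 ± 0.14. Smarca5 over Smarca1 went from 3.75 ± 0.80 to 2.93 ± 0.19, a difference of -0.82 that was -0.35 without ESC total replicate 3. The ATPase pair Smarca4 and Smarca2 overlapped (6.17 ± 0.70 and 6.51 ± 0.18), as did Smarcc1 and Smarcc2, and Chd4 and Chd5. For Smarca4 over Smarca2 the difference of 0.34 rested on ESC total replicate 3 and was -0.07 without it.

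**Figure D5:**
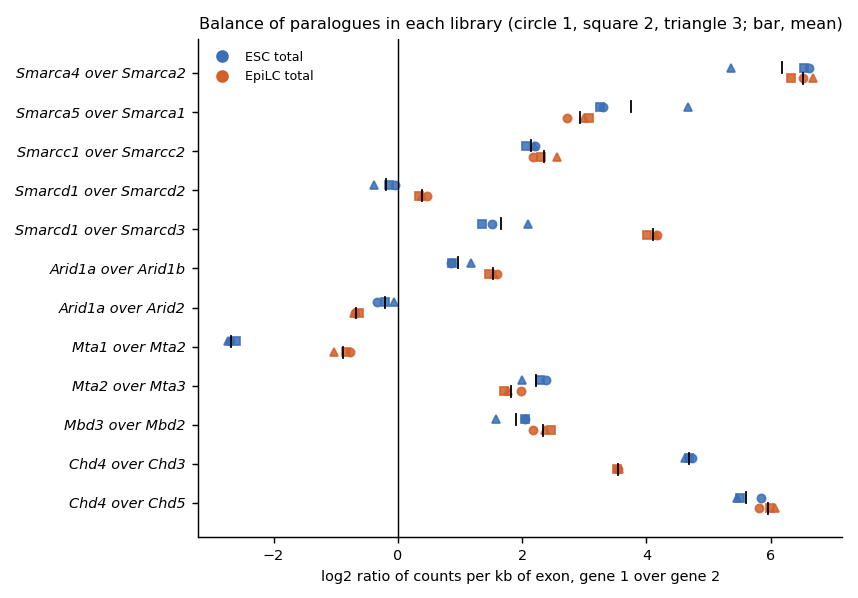
Log2 ratio of counts per kb of exon between 2 paralogues (horizontal axis) in each of 3 ESC and 3 EpiLC total libraries, for 12 pairs; symbols give the replicate number and the short bars give group means. The groups are farthest apart for Smarcd1 over Smarcd3 and for Mta1 over Mta2, and ESC replicate 3 lies alone for Smarca5 over Smarca1 and for Smarca4 over Smarca2.

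Partner genes of these complexes outside the naming rule were counted from a list of 73 subunits and related ATPases, of which 71 were tested (Actl6b and Dpf3 were not). In total RNA 5 were called higher and 3 lower, and on the adjusted p 16 were higher and 25 lower, beside the same background shares as for the members. The rises were Bcl11a, Bcl11b, Cdca7l, Bicra and Cdk2ap1. Bcl11a, a zinc finger subunit of BAF, went from 0.464, 0.403 and 0.0983 CPM to 10.4, 9.67 and 8.55 (log2 4.79 ± 0.75, adjusted p = 6.13e-05), and its paralogue Bcl11b from 1.51, 1.76 and 2.75 to 22.9, 19.1 and 21.6 (log2 3.49 ± 0.20, adjusted p = 1.79e-09). Cdca7l, a relative of the HELLS activator CDCA7, rose by log2 1.67 ± 0.16 (adjusted p = 3.26e-07).

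The partners called lower were Bicral, Dpf1 and Baz2b. Bicral and Bicra are alternative subunits of the non-canonical BAF complex. Bicral total RNA went from 74.3, 74.8 and 79.9 CPM to 31.9, 27.9 and 29.5 (log2 -1.36 ± 0.09, adjusted p = 9.18e-09), whereas Bicra went from 2.61, 2.77 and 3.74 to 7.03, 8.34 and 7.16 (log2 1.37 ± 0.18, adjusted p = 1.20e-05). Bicral 4sU RNA fell further, from 404, 473 and 439 CPM to 69.0, 75.7 and 72.1 (log2 -2.60 ± 0.09), which gave the one called stability change among the partners (1.24 ± 0.13, adjusted p = 3.57e-04). Dpf1, the neuronal relative of Dpf2, fell by log2 1.20 ± 0.18 and Baz2b, an ISWI partner, by 1.06 ± 0.11.

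On the adjusted p alone, 2 partners had a higher stability in EpiLCs (Bicral and Bicra) and 4 a lower one, of 71 tested and beside 2.72% and 1.88% of all genes tested. With the replicate block these counts were 3 and 8, beside 7.31% and 4.44%. Those 4 were Ss18l1 (-0.90 ± 0.20, adjusted p = 0.0262), Hdac1 (-0.69 ± 0.18, adjusted p = 0.0461), Daxx (-0.67 ± 0.16, adjusted p = 0.0339) and Actl6a (-0.46 ± 0.12, adjusted p = 0.0439). Daxx, the H3.3 chaperone that works with Atrx, gave a nascent change of 0.01 ± 0.12 and a total change of -0.66 ± 0.10. Hdac1, the deacetylase of NuRD, gave 0.06 ± 0.15 and -0.63 ± 0.10. These 4 genes, Bicra and Cdk2ap1 were named after their values were seen.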

How the data were processed

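RNA from ESCs and EpiLCs was measured in 12 libraries, 3 in each of 4 groups taken from the sample labels. According to the labels and the methods, the authors trimmed stranded single-end reads (cutadapt 1.14), aligned them to mm10 with STAR 2.5.3a, kept unique alignments and counted reads on exons by strand with featureCounts 1.5.3 on GENCODE M14. The deposited values are raw counts per gene, in which reads on exons of several genes are not assigned. The 92 spike-in entries held 0 reads and were left out. GENCODE M21 named 51274 of 51467 gene IDs. Members, gene lists and tests were chosen with earlier results of these data known.

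The fit was limma-voom (version 3.58.1 of limma under R 4.3.3), with a mean for each of the 4 groups and TMM scaling from edgeR 4.0.16. A gene entered it when 3 or more libraries reached 3 CPM. Contrasts were EpiLC minus ESC in total RNA, the same in 4sU RNA, and their difference (the stability change). Called genes had a Benjamini-Hochberg adjusted p under 0.05 over all genes tested and an absolute log2 change over 1. CPM values use TMM library sizes. Total libraries held a median of 10971213 counts and 4sU libraries 4169803. Reads had no molecular identifiers, so counting error is a lower limit on the error. Ratios of total over 4sU per library had 0.5 reads added to each count. Paralogue ratios, with none added, were compared by an exact two-sided permutation test.

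Values in every library were given for members called in any contrast, the 6 largest total RNA and 6 largest stability changes at an adjusted p under 0.05, the 2 most and 2 least stable members in ESCs, and pairs without overlap. The 3 largest called rises and falls were named among partners, and other members complete the account. Alternatives were edgeR's quasi-likelihood test, DESeq2 1.42.0, other scalings, no filter, quality weights, a replicate block, leaving out each library and, chosen after the data were seen, removing the length trend. The fit was tested on simulated data. Other tools were Python 3.11.15, pandas 2.3.3, scipy 1.17.1 and matplotlib 3.10.9.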

Additional observations from a re-analysis of the deposited data

Results flagged for a closer look

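For 3 members the change from ESC to EpiLC differed between total and 4sU RNA by the interaction test in limma-voom. The difference on the log2 scale was -0.87 for Chd2 (adjusted p = 0.00159), -0.61 for Hells (adjusted p = 0.0354) and -0.60 for Mta2 (adjusted p = 0.0482). With same-numbered 4sU and total libraries as a replicate block, the adjusted p were 5.06e-04, 0.00465 and 0.0211. Total over 4sU was lower in every EpiLC pair of libraries than in every ESC pair for all 3 genes.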

How the results depend on the processing

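Results rest on 3 libraries a group, and low 4sU counts limit Smarcd3, Smarca2 and Smarca1. On the adjusted p alone the members gave 15 higher and 12 lower in total RNA, 16 and 6 in 4sU RNA and 3 lower in stability, and the partners 16 and 25 in total RNA and 2 and 4 in stability. Removing the length trend gave 3 lower in total RNA, and 2 higher and 1 lower in 4sU RNA, and turned the sign for Chd1 (-0.19) and Chd4 (-0.041) in total RNA and Arid1b (-0.14) in 4sU RNA. Of all 14731 genes tested, 1664 were then called lower in total RNA, and 1731 higher and 1985 lower in 4sU RNA. Nascent RNA had 1 member called lower with edgeR, DESeq2, quality weights, the replicate block and without both ESC replicate 3 libraries. These settings called 1786 to 2076 of all genes tested lower. Partners with a higher stability numbered 2 with library totals, with quality weights and without both ESC replicate 3 libraries. Leaving out libraries gave 6 to 7 members higher and 1 lower in total RNA, 4 to 7 higher and 0 to 1 lower in 4sU RNA, 0 in stability, and 1 to 2 partners higher and 0 to 1 lower in stability. Of the 14309 to 14672 genes that these fits tested, 2206 to 2554 were called higher and 1479 to 1672 lower in total RNA. The ranges were 1559 to 1857 and 1604 to 2009 in 4sU RNA, and 39 to 680 and 21 to 99 in stability. The ESC median of relative stability was -0.14 with TMM within each assay, -0.21 with library totals and 0.23 with no filter, and the EpiLC median was -0.19, -0.13 and 0.13, and -0.12 with median-of-ratios scaling. Leaving out libraries put the ESC median between -0.0243 and 0.0825 and the EpiLC median between -0.118 and 0.0459. In 4sU RNA the paralogue shifts were 0.37 for Arid1a over Arid1b, 0.86 for Mta1 over Mta2, 0.22 for Mta2 over Mta3, 0.019 for Mbd3 over Mbd2, -0.55 for Chd4 over Chd3 and 1.12 for Chd4 over Chd5. Over all genes, stability calls numbered 182 higher and 45 lower, against 738 and 108 with quality weights, 97 and 82 with no filter and 253 and 28 with library totals. The causes were not tested.

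The deviations of same-numbered libraries correlated at -0.13 to -0.01 between ESC and EpiLC total RNA. Between ESC and EpiLC 4sU RNA they correlated at -0.06 to -0.03. Between total and 4sU RNA, which the protocol splits from each sample, they correlated at 0.21 to 0.46 in ESCs and at 0.02 to 0.09 in EpiLCs. The measure was thus low in EpiLCs although the protocol implies a pairing there, so it cannot show whether the numbers pair the cell types. In ESCs the highest value, 0.46, was for replicate 3, which stood apart in both assays. ESC total replicate 1 correlated more with 4sU replicate 2 (0.35) than with 4sU replicate 1 (0.21). Deviations from a mean of 3 libraries depend on each other, so these values cannot show whether ESC replicates 1 and 2 were paired. With the replicate block 7 members were called higher in total RNA, beside 2397 of 14731 genes tested. The stability changes with a block were -0.87 for Chd2, -0.60 for Hells and -0.60 for Mta2. The block raised members past the adjusted p in stability from 3 to 7 and stability calls over all genes to 438 higher and 90 lower.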
